A study of Acipenser dabryanus with 12 samples.

Results

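A set of 99 assembled genes of the Yangtze sturgeon (Acipenser dabryanus) differed between a soybean oil and a fish oil diet in the same direction in brain, liver and spleen before the daily meal. They were chosen by measured values. TPM is a transcript abundance per length, scaled to a fixed library total. A gene had to reach a mean of at least 20 TPM over all 4 libraries of each tissue, before and after the meal. Its ratio of TPM + 1 between soybean oil and fish oil, taken from the libraries before the meal, had to be at least 1.5 in all 3 tissues or at most 1/1.5 in all 3. Of 280408 genes in the assembly, 1344 reached the level in each tissue. Among these, 13 were higher with soybean oil, which is 0.967% of them, and 86 were lower, which is 6.40%. These shares follow from the rule and are given as a description only. All 99 passed the filter of the later test, since the rule already demands that level.

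The fish were 6 months old and had been kept for 7 weeks in 2 ponds, with soybean oil as the fat source in the one and fish oil in the other. Tissue was taken 1 h before the meal at 16:00 or 1 h after it. Each of the 3 tissues has 4 libraries: soybean oil before the meal, fish oil before the meal, soybean oil after the meal and fish oil after the meal, with 1 library for each combination. Diet cannot be told apart from pond, and feeding state cannot be told apart from hour of day. Whether a library pools fish, and whether the 3 tissues came from the same fish, is not stated. The library text speaks of 3 samples per group and time and of 45 libraries, whereas 12 are analysed here, so what 1 library stands for is uncertain and p-values measure only the spread between these libraries. The dissection text speaks of liver alone, and the tissue labels could not be checked against named markers. In tissue RNA, fewer cells of a type and less RNA per cell cannot be told apart.

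Fish oil carries long-chain omega-3 fatty acids such as eicosapentaenoic and docosahexaenoic acid, whereas soybean oil is rich in linoleic acid, which an animal must elongate and desaturate to make long-chain products. Liver takes up, makes and exports lipid, brain membranes hold much docosahexaenoic acid, and the spleen of fishes filters blood and houses immune and blood-forming cells. The files pair the Trinity IDs with no gene name, so no role can be given to any member and none is assigned to a pathway.

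The libraries differed in how many genes they detected. Brain libraries held 52435 to 78832 genes of at least 1 TPM, liver libraries 29749 to 46726 and spleen libraries 47226 to 62193. The 100 highest genes took 29.9% to 41.8% of all TPM in brain, 44.8% to 56.1% in liver and 38.2% to 50.9% in spleen. No 2 libraries were identical. How deeply each library was sequenced cannot be read from TPM, so depth is unknown and intervals for counting error could not be had.

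Genes lower with soybean oil before the meal made up most of the members. Their levels were modest: the mean over tissues ran from 21.5 to 514 TPM with a median of 52.1 TPM, against a median of 73.6 TPM over the 1344 genes. Of the 86, 67 had a mean under 100 TPM (77.9%, against 61.6% of the 1344), and 0 reached 1000 TPM. Before the meal the median log2 fold of soybean oil over fish oil, on the scale of TPM + 1, was -1.27 in brain, -1.26 in liver and -1.21 in spleen, by the choice of the genes. The deepest folds were -3.35 in brain and -3.37 in spleen. In liver TRINITY_DN114922_c0_g1, named after its values were seen, was listed at 0 TPM with soybean oil against 21.0 TPM with fish oil, so no fold is given for it. The 86 genes together took 0.404% of all TPM in the soybean oil brain before the meal and 1.00% in the fish oil brain. In liver these sums were 0.319% and 0.721%, and in spleen 0.512% and 1.15%.

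The library that stood apart was not the same in the 3 tissues, although the rule sets soybean oil below fish oil before the meal in each. The median TPM of the 86 genes in brain was 35.7 with soybean oil before the meal, 91.8 with fish oil before it, 47.4 with soybean oil after it and 41.8 with fish oil after it. The fish oil brain before the meal was thus high, and the medians of the other 3 lay between 35.7 and 47.4 TPM. The rule already sets the fish oil library above the soybean oil library before the meal in all 86 genes. The fish oil library before the meal held the highest of the 4 values in 67 of the 86, against 23.4% of the 1344. The lowest value lay in the soybean oil library before the meal in 56, against 17.9%, and in the fish oil library after it in 25, against 21.8%. In liver the medians were 17.8, 47.1, 47.8 and 51.5 TPM in the same order of libraries. Here the soybean oil liver before the meal was low, with the lowest value in 83 of the 86 genes, against 34.9% of the 1344. The medians of the other 3 were alike, but the highest value was not evenly spread over them. It lay in the fish oil liver after the meal in 43, against 31.1%, and before it in 31, against 32.9%. The soybean oil liver after the meal held it in 12, against 8.26%. In spleen the medians were 34.1, 73.5, 67.7 and 31.1 TPM. Soybean oil before the meal and fish oil after it were low, and the other pair was high. In 74 of the 86 genes both of these low libraries lay under both high ones, against 27.3% of the 1344 genes. The low and high spleen libraries were picked from the medians of these same 86 genes. The rule also fixes the order of the before-meal pair in the 86 and not in the 1344. The gaps to the 1344 in this paragraph are thus partly built in by the choice and are a description only.

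**Figure D1:**
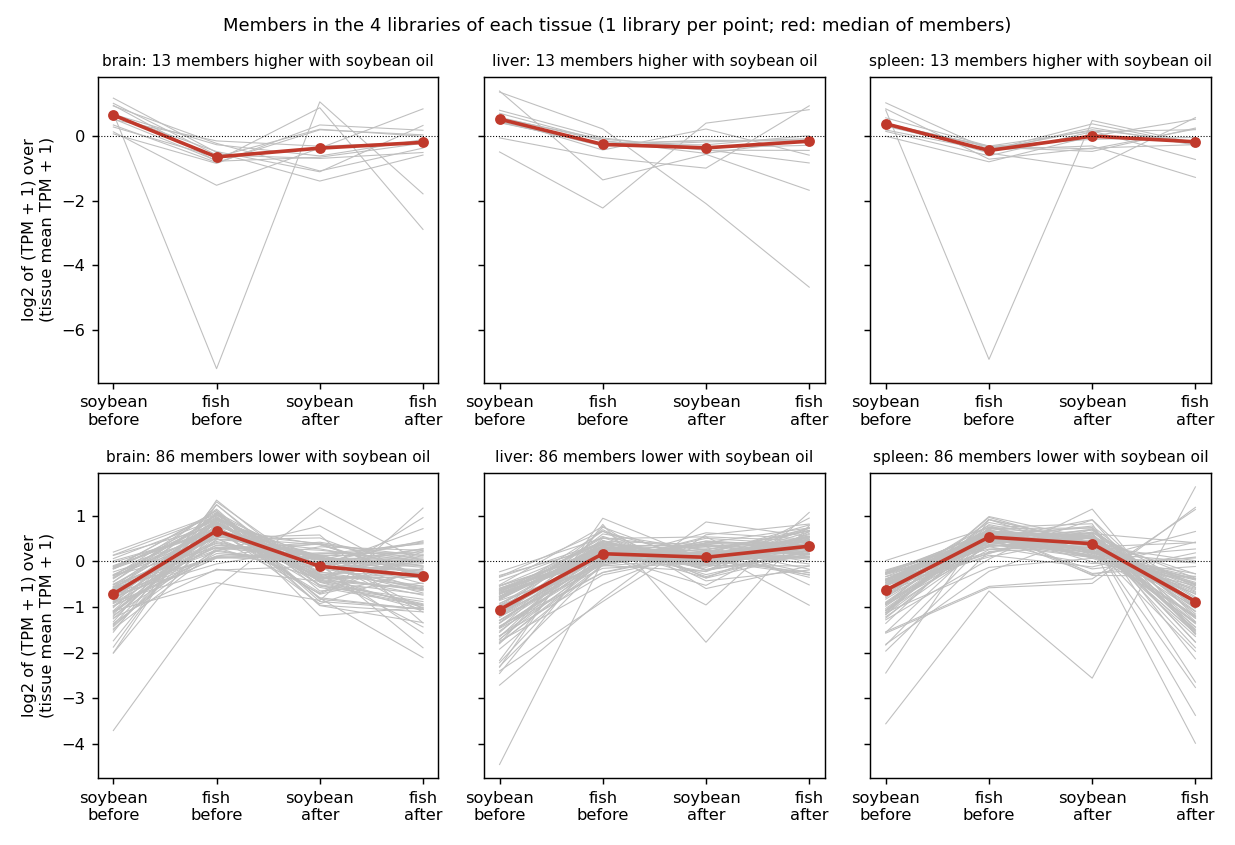
Each grey line is 1 member in the 4 libraries of a tissue, as the log2 of TPM + 1 over the tissue mean TPM + 1, and the red points are the median of the 13 higher members (top) or of the 86 lower members (bottom). The lower members peak in the fish oil brain before the meal, dip in the soybean oil liver before the meal, and are low in 2 of the 4 spleen libraries.

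The order of the libraries by level of the lower members was close to their order by number of detected genes. The before-meal pair adds nothing to this, since the rule fixes soybean oil as the lower there, and fewer genes were detected with soybean oil in all 3 tissues. In brain, the soybean oil library before the meal detected 52435 genes of at least 1 TPM, the fish oil library 78832, and after the meal the numbers were 66426 with soybean oil and 66103 with fish oil. The order is that of the 4 medians above, though the 2 after-meal numbers of detected genes were nearly equal. In spleen the numbers were 48131 and 62193 before the meal and 60507 and 47226 after it, again in the order of the medians. In liver they were 29749 and 41124 before the meal and 40932 and 46726 after it, and here the order differs only in the 2 middle libraries, which are close in both measures. The share of the 100 highest genes had the reverse order in spleen, at 49.3% with soybean oil and 38.2% with fish oil before the meal and 42.5% and 50.9% after it. In liver it was 56.1%, 46.2%, 51.1% and 44.8%, the reverse order of detected genes, and in brain it was 41.8%, 30.7%, 33.7% and 29.9%, where the reverse order did not hold. Over all 1344 genes the median TPM was 43.0, 50.6, 44.4 and 51.6 in liver and 71.4, 77.9, 72.0 and 64.5 in spleen, in the order of detected genes, over a narrower range than in the 86. In brain it was 81.7, 75.8, 71.8 and 77.5, which does not follow that order. The part of library complexity in the folds of the members was not tested.

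**Figure D2:**
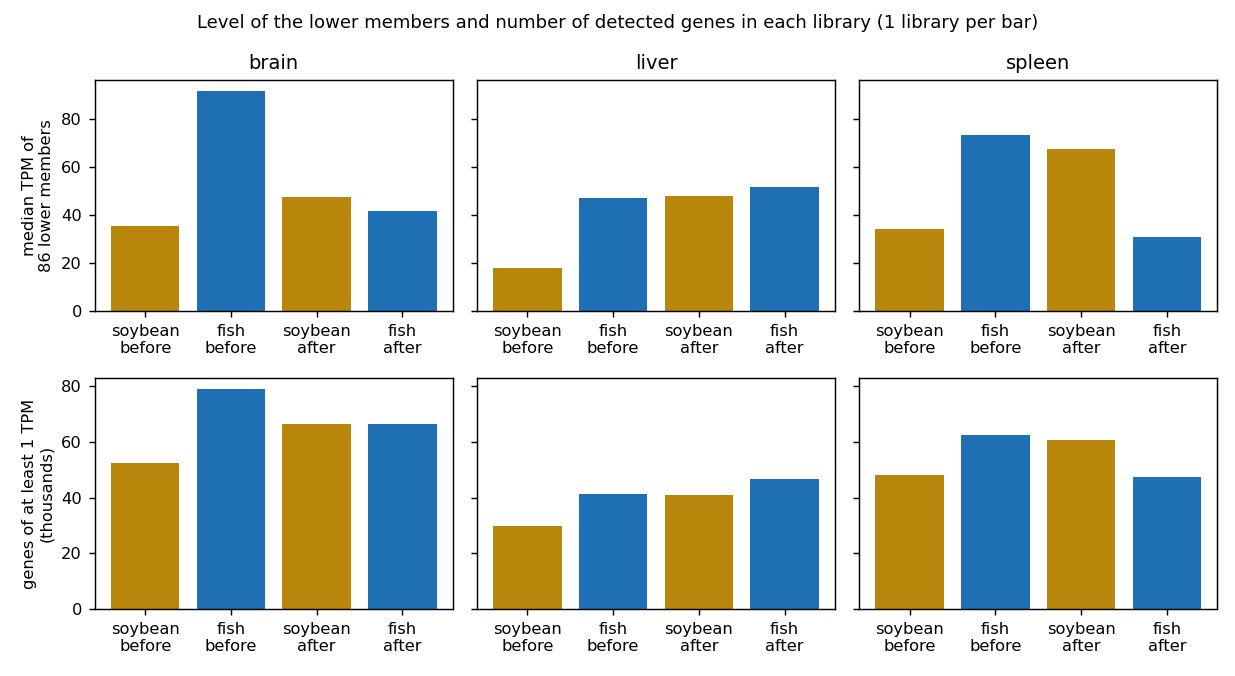
Bars give the median TPM of the 86 lower members (top) and the number of genes of at least 1 TPM divided by 1000 (bottom) for each library, 1 library per bar, gold for soybean oil and blue for fish oil. In brain both rows are highest with fish oil before the meal, and in spleen both are low with soybean oil before and fish oil after the meal.

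The clearest single case among the lower members was TRINITY_DN135410_c0_g2, which had the largest value of its smallest fold. It stood at 36.5 TPM with soybean oil and 143 TPM with fish oil in brain before the meal, at 13.0 and 51.4 TPM in liver and at 9.63 and 44.4 TPM in spleen. These are fish oil levels 3.85, 3.75 and 4.27 times those with soybean oil. After the meal it was at 76.4 and 72.5 TPM in brain, 51.4 and 44.7 TPM in liver and 52.5 and 14.3 TPM in spleen. The brain and liver pairs had drawn level, and the spleen pair had turned round.

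The next, TRINITY_DN136654_c0_g1, was at 12 TPM with soybean oil and 46.8 TPM with fish oil in brain before the meal, at 7.14 and 38.0 TPM in liver and at 2.58 and 25.9 TPM in spleen. After the meal the brain values were 48.2 and 26.6 TPM, the liver values 57.2 and 53.8 TPM and the spleen values 6.16 and 130 TPM. This gene kept a fish oil excess in spleen alone, where it was 18.3-fold on the scale of TPM + 1. The fish oil spleen after the meal held the gene's highest value of all 12 libraries. The spleen mean of the gene, 41.2 TPM, reached the floor of 20 TPM only through that library. The 18.3-fold excess is thus not free of the choice.

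The 2 most abundant lower members had unlike tissue profiles. TRINITY_DN125289_c5_g1 was at 362 TPM with soybean oil and 1042 TPM with fish oil in brain before the meal, at 432 and 741 TPM in liver and at 142 and 321 TPM in spleen. After the meal it was at 697 and 558 TPM in brain, 471 and 1068 TPM in liver and 273 and 66.8 TPM in spleen. The liver fold thus kept its direction, and the spleen fold turned to a soybean oil excess of 4.03-fold. TRINITY_DN136835_c4_g2 was mainly a spleen transcript, at 614 and 975 TPM there before the meal, then 833 and 376 TPM. Brain held 120 and 186 TPM, then 97.2 and 70.5 TPM, and liver 112 and 214 TPM, then 133 and 191 TPM.

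Genes higher with soybean oil before the meal were fewer and more abundant. The mean over tissues of the 13 ran from 33.3 to 3482 TPM with a median of 262 TPM, against 73.6 TPM over the 1344 genes. Of the 13, 3 had a mean of at least 1000 TPM, against 93 of the 1344. A mean under 100 TPM was found in 5 of them (38.5%, against 61.6% of the 1344). Before the meal the median log2 fold was 1.16 in brain, 0.77 in liver and 0.79 in spleen, as the choice requires. The soybean oil library before the meal held the highest of the 4 values in 9 of the 13 genes in brain, 11 in liver and 9 in spleen, against 43.8%, 27.8% and 28.8% of the 1344. The fish oil library before the meal was the lowest in 6, 4 and 8 of them, against 35.5%, 7.74% and 11.2%. The rule sets soybean oil above fish oil in these pairs. The 13 genes together took 1.32% of all TPM in the soybean oil brain before the meal and 0.536% in the fish oil brain, with 0.972% and 0.820% after it. In liver the sums were 0.807% and 0.468% before and 0.437% and 0.452% after the meal, and in spleen 2.67% and 1.51% before and 1.78% and 1.83% after.

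TRINITY_DN116451_c2_g2 had the widest span of all members, as the ratio of its highest to its lowest TPM + 1 over the 12 libraries. Its brain values before the meal were 725 TPM with soybean oil and 2.04 TPM with fish oil, followed by 928 and 128 TPM. Spleen held 669 and 2.20 TPM, then 536 and 329 TPM, and liver 91.5 and 40.9 TPM, then 7.46 and 0.41 TPM. Soybean oil was higher in all 6 pairs, which the rule fixes for those before the meal. The values also differed widely within a diet: the fish oil spleen held the lowest value of that tissue before the meal and not after it, and both liver values were lower after the meal.

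TRINITY_DN122944_c0_g1 was the other member with soybean oil higher in all 6 pairs, again by the rule in those before the meal. It was at 397 TPM with soybean oil and 161 TPM with fish oil in brain before the meal, at 245 and 35.5 TPM in liver and at 615 and 224 TPM in spleen. After the meal it was at 503 and 36.1 TPM in brain, 62.3 and 28.3 TPM in liver and 244 and 124 TPM in spleen. In each tissue both soybean oil values lay above both fish oil values, in spleen by a small margin between the after-meal soybean oil and the before-meal fish oil library.

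**Figure D3:**
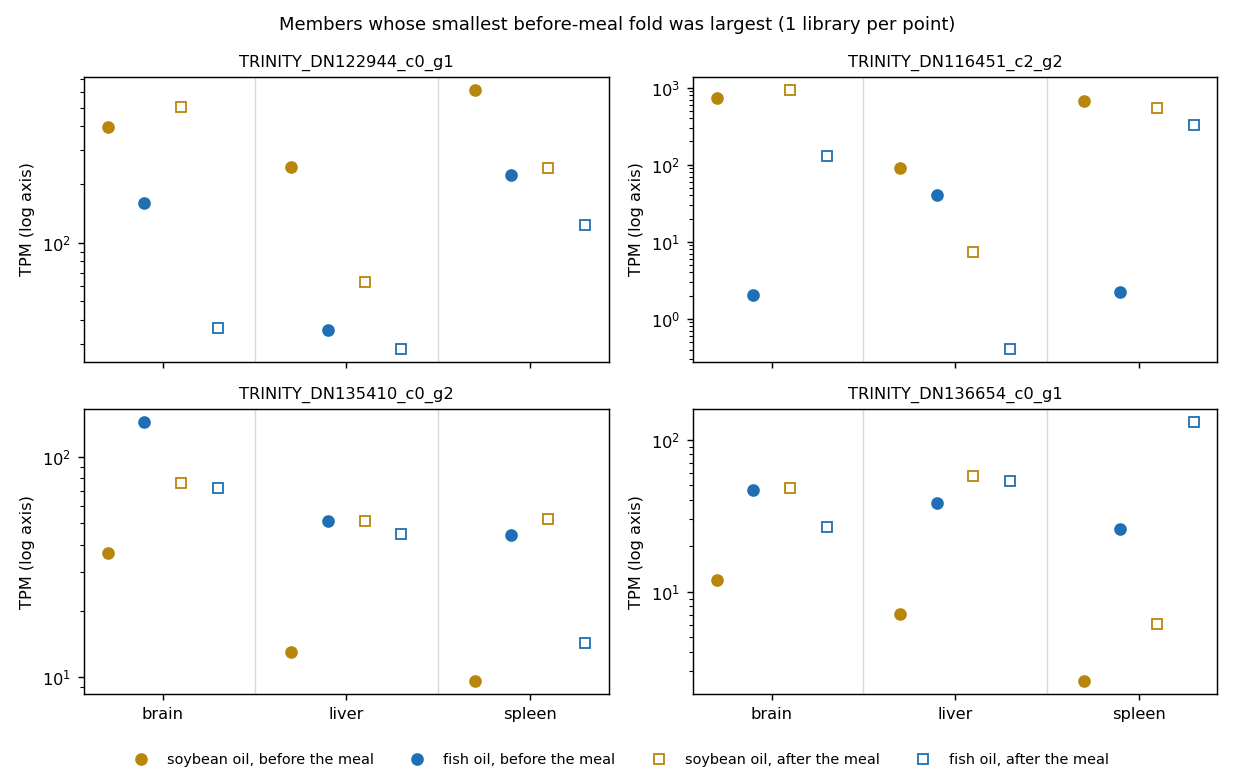
TPM on a log axis in each of the 12 libraries for the 2 higher members (top) and 2 lower members (bottom) with the largest value of their smallest fold before the meal, gold for soybean oil and blue for fish oil, filled before and open after the meal, 1 library per point. The rule puts the gold symbol above the blue one before the meal in the top genes and below it in the bottom genes. The top genes also have the gold one above in all 3 tissues after the meal. After it, TRINITY_DN135410_c0_g2 has the gold one above in all 3 tissues, and TRINITY_DN136654_c0_g1 in brain and liver only.

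The 2 most abundant higher members had similar values in brain and spleen, and in liver the first was the higher in each library. TRINITY_DN110788_c4_g1 was at 3783 TPM with soybean oil and 1989 TPM with fish oil in brain before the meal, then 3605 and 3098 TPM. Liver held 2946 and 1778 TPM, then 1356 and 1807 TPM, and spleen 6833 and 4304 TPM, then 4063 and 6218 TPM. TRINITY_DN109527_c0_g2 was at 3551 and 1589 TPM in brain, then 3199 and 2873 TPM. Spleen held 6454 and 3882 TPM, then 3543 and 5847 TPM, and liver 1878 and 1194 TPM, then 990 and 1045 TPM. For both genes the soybean oil spleen was the higher of its pair before the meal and the lower after it.

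Members at the edge of the rule had a smallest before-meal ratio close to that of genes just past it. TRINITY_DN137106_c0_g1 was the higher member with the smallest ratio, 1.53 in liver before the meal. TRINITY_DN133370_c1_g1 stayed out with a smallest ratio of 1.499. Among the lower genes, TRINITY_DN112472_c0_g1 entered with a fish oil level 1.52 times that of soybean oil in spleen, and TRINITY_DN110724_c0_g1 stayed out at 1.49 times in liver. A further 79 genes reached the ratio in 2 of the 3 tissues in the higher direction and 123 in the lower direction.

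Beyond the rule, the members shared no single tissue. Of the 86 lower members, 32 had their highest mean in brain, 20 in liver and 34 in spleen. These are 37.2%, 23.3% and 39.5%, against 44.9%, 14.7% and 40.5% of the 1344 genes. The median ratio of the highest to the lowest tissue mean was 1.90, against 2.41 over the 1344. Of the 13 higher members, 2 were highest in brain, 2 in liver and 9 in spleen (69.2%), with a median ratio of 3.43. Trinity groups IDs that share sequence into components, and 57 of the lower and 10 of the higher members shared a component with another ID (66.3% and 76.9%, against 76.1% of the 1344). Such IDs can divide reads between them. Only 3 components held more than 1 member, each with 2 lower members.

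The libraries after the meal were not used in the ratio, but they did enter the mean of at least 20 TPM. A gene that was low before the meal could pass that floor through a high after-meal value. The after-meal levels and folds are thus not wholly free of the choice. The lower members did not keep a common direction. In spleen 75 of the 86 were higher with soybean oil after the meal, against 53.9% of the 1344 genes, and in brain 60 were, against 41.1%. In liver 24 were higher, against 25.1%, and 62 lower, against 74.9%. In brain 26 were lower, against 58.9%, and in spleen 11 were, against 46.1%. The median log2 fold of the 86 was 1.32 in spleen, 0.23 in brain and -0.26 in liver, where the 1344 genes had medians of 0.062, -0.070 and -0.23. The liver values lay close to those of all genes at that level, and the spleen values lay far from them and opposite to the direction before the meal. Scaling shifted the 1344 genes in liver, to a median of -0.032 after quantile normalization and -0.015 after median scaling, and 40 and 38 of the 86 were then higher there, against 45.9% and 48.5% of the 1344. In brain 67 of the 86 were higher under either scaling, against 54.0% and 54.7%, and in spleen 74 and 73, against 49.9% and 43.8%.

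Folds of at least 1.5 after the meal were most frequent in spleen. There 65 of the 86 lower members were at least 1.5-fold higher with soybean oil, against 24.0% of the 1344 genes. In brain 18 were, against 6.77%, and in liver 2 were, against 67 of the 1344. In liver 13 were lower with soybean oil by that ratio, against 17.6%. In brain 7 were lower by it, against 89 of the 1344, and in spleen 4, against 172. Of the 86 genes, 0 met the rule again in the lower direction after the meal, against 0.223% of the 1344, and 0 met it in the higher direction, against 0.298%. Of the 13 higher members, 2 met it again in the higher direction, against 0.298%, and 0 in the lower, against 0.223%. The 2 were TRINITY_DN122944_c0_g1 and TRINITY_DN116451_c2_g2. The liver pair of the latter was at 7.46 and 0.41 TPM, so the size of that ratio depends on the added 1. In brain, liver and spleen 2, 3 and 4 of the 13 were at least 1.5-fold higher, against 91, 67 and 322 of the 1344. By that ratio 4, 1 and 3 were lower, against 89, 236 and 172.

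**Figure D4:**
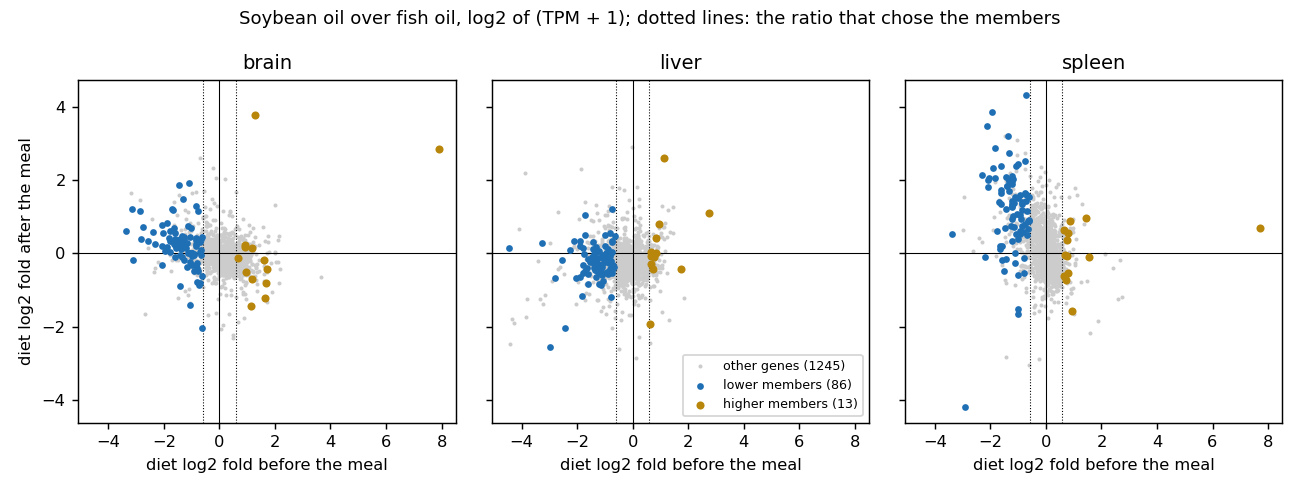
Diet log2 folds (soybean oil over fish oil, TPM + 1) before the meal on the x axis and after it on the y axis for the 1344 genes of at least 20 TPM in each tissue, with the 86 lower members in blue and the 13 higher members in gold. The blue points lie above 0 after the meal in 75 of 86 cases in spleen, in 60 in brain and in 24 in liver.

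Few of the lower members kept their direction in every tissue. Of the 86, 4 were lower with soybean oil in all 3 tissues after the meal, against 26.0% of the 1344 genes. With the spleen left out, 20 were lower in both brain and liver, against 43.8% of the 1344. The opposite direction in all 3 tissues was found in 13 of the 86, against 7.59%. Among the 13 higher members, 2 were higher in all 3 tissues after the meal and 2 were lower in all 3, against the same 7.59% and 26.0%. Their after-meal medians were -0.18 in brain, -0.016 in liver and -0.059 in spleen, with 5, 6 and 6 of the 13 higher, against 41.1%, 25.1% and 53.9% of the 1344. The liver median of the 13 was above 0 after quantile normalization and after median scaling of the libraries, at 0.118 and 0.20.

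TRINITY_DN134576_c2_g2 was the lower member that best kept its direction. It was at 59.9 TPM with soybean oil and 97.3 TPM with fish oil in brain before the meal, at 13.2 and 24.8 TPM in liver and at 66.9 and 192 TPM in spleen. After the meal the values were 104 and 184 TPM in brain, 21.9 and 32.4 TPM in liver and 104 and 145 TPM in spleen. The fish oil library was the higher in all 6 pairs, which the rule fixes for those before the meal. The liver mean of this gene, 23.1 TPM, reached the floor of 20 TPM only through the fish oil liver after the meal. Its after-meal liver fold is thus not free of the choice. TRINITY_DN137810_c1_g1 also had the fish oil library higher in all 6 pairs, with smaller differences after the meal. It was then at 44.7 and 69.6 TPM in brain, 18.5 and 22.8 TPM in liver and 42.4 and 50.9 TPM in spleen. Its values before the meal were 46.9 and 72.3 TPM in brain, 11.4 and 31.2 TPM in liver and 30.2 and 66.6 TPM in spleen. Its liver mean, 21.0 TPM, lay just above the floor of 20 TPM. With its other liver values as they were, the floor required fish oil above soybean oil in liver after the meal. The order of that pair is thus set by the choice too.

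TRINITY_DN132795_c0_g3 was among those that turned round in all 3 tissues. It was at 50.6 TPM with soybean oil and 141 TPM with fish oil in brain before the meal followed by 67.6 and 17.9 TPM. In liver the values went from 28.6 and 284 TPM to 150 and 124 TPM, and in spleen from 36.6 and 93.4 TPM to 201 and 29.6 TPM. TRINITY_DN109539_c1_g2 also turned round, with 29.9 and 182 TPM in brain, then 52.2 and 41.1 TPM. Its liver values were 5.76 and 24.1 TPM, then 79.7 and 63.5 TPM, and its spleen values 20.5 and 64.5 TPM, then 61.7 and 19.0 TPM. In both genes the after-meal liver values lay close together and the spleen values far apart.

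Among the higher members, TRINITY_DN123157_c6_g2 and TRINITY_DN115919_c0_g1 were lower with soybean oil in all 3 tissues after the meal. The first went from 77.2 and 39.8 TPM in brain with soybean oil and fish oil before the meal to 31.1 and 44.6 TPM after it. Its liver values went from 23.7 and 6.42 TPM to 44.8 and 60.1 TPM and its spleen values from 67.9 and 38.8 TPM to 68.1 and 98.3 TPM. TRINITY_DN115919_c0_g1 was at 348 and 219 TPM and then 196 and 213 TPM in brain, at 560 and 350 TPM and then 348 and 423 TPM in liver, and at 220 and 74.0 TPM and then 94.2 and 101 TPM in spleen. Its after-meal differences were small in each tissue, with fish oil 1.08 to 1.22 times soybean oil.

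Diet after the meal was tested across the 3 tissues on the 6 libraries after the meal alone, with the tissue as a block, so that the spread is the diet-by-tissue difference on 2 residual degrees of freedom. Limma with Benjamini-Hochberg adjustment called 0 of 89972 genes (0%), and hence 0 of the 99 members, with a lowest adjusted p of 0.802. At an unadjusted p under 0.05 there were 2746 of the 89972 genes, and 2409 without the mean-variance trend. Both are a smaller share of the genes tested than the threshold of 0.05 itself. Among the 86 lower members 2 had such a p for lower and 0 for higher values with soybean oil, and among the 13 higher members 1 had it in each direction. Over the 1344 genes the shares were 7.74% for lower and 1.34% for higher. This does not show that diet had no effect after the meal, since a fold that differs by tissue enters the error. With the after-meal pair of 1 tissue left out, limma called 27 genes without brain, 62 without liver and 2 without spleen, of which 0 were members.

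The 4 members with an unadjusted p under 0.05 all had an adjusted p of 0.802 by limma. For TRINITY_DN134576_c2_g2 the fitted diet difference was -0.61 ± 0.14 (log2, SE), lower with soybean oil in 3 of 3 tissues. Its liver fold is not free of the choice, as given above. For TRINITY_DN117542_c5_g1, named after its values were seen, it was -0.39 ± 0.13. TRINITY_DN116451_c2_g2 was higher with soybean oil in 3 of 3 tissues, by 2.04 ± 0.52. Its after-meal liver pair was low, at 7.46 and 0.41 TPM, and a pseudocount of 0.1 gave 2.48 ± 0.73. TRINITY_DN123157_c6_g2 was lower in 3 of 3, at -0.48 ± 0.12, against its direction before the meal.

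The change from before to after the meal shares the before-meal libraries with the rule, so its values are given with no test. Of the 86 lower members, 66 in brain, 84 in liver and 86 in spleen were higher after the meal with soybean oil, at median log2 folds of 0.67, 1.09 and 1.09. Over the 1344 genes 34.8%, 40.6% and 41.2% were. With fish oil 73 brain values and 79 spleen values were lower after it, at medians of -0.98 and -1.38, against 45.2% and 61.3% of the 1344. In liver with fish oil 51 were higher, against 45.01%, at a median of 0.19. The 1344 genes had medians between -0.28 and 0.076 over the same 6 changes. Of the 13 higher members, 10 in brain, 12 in liver and 11 in spleen were lower after the meal with soybean oil, against 65.2%, 59.4% and 58.8% of the 1344. With fish oil 9, 7 and 11 were higher after it, against 54.8%, 45.01% and 38.7%.

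Diet folds were more alike between tissues before the meal than after it. Across the 1344 genes Pearson's r of the before-meal folds was 0.622 for brain and spleen, 0.483 for brain and liver and 0.354 for liver and spleen (Spearman's rho 0.60, 0.520 and 0.488). After the meal it was 0.272, -0.032 and 0.122 (rho 0.324, -0.010 and 0.141). These are descriptions across genes, which are not independent replicates. All folds of a tissue and feeding state share 2 libraries and their scaling.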

How the data were processed

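Per the labels' protocols, RNA was sequenced as 125-bp paired-end Illumina reads and Trinity built the assembly from the filtered reads; its version and the quantification tool are not given in the sources used here. The deposited values are TPM per Trinity gene, 1 column per library, and the authors' values sum to 1000000 within rounding. Since TPM is relative to a fixed sum, a few high genes lower all others, and depth is lost.

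Groups came from the labels. The members, lists and tests were chosen with earlier results of these data known. IDs were named by a rule: in each direction, the 2 members with the largest smallest fold before the meal, the 2 that best kept and the 2 that best reversed their direction after it, the 2 most abundant, and those beside the ratio limit. No sequence was used.

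Limma 3.58.1 under R 4.3.3, with a mean-variance trend and robust moderation, was fitted to log2(TPM + 1), a scale that understates folds of low genes. Genes entered at 1 TPM or more in 2 or more of the 12 libraries, with Benjamini-Hochberg adjustment at 0.05. The member rule was checked on made-up values with known answers. The fit was checked on simulated libraries with a common normal spread and no diet-by-tissue difference. That check does not show the power of the fit on these data. Python 3.11.15, pandas 2.3.3, numpy 2.4.6 and matplotlib 3.10.9 gave summaries and plots. Alternatives were a ratio of 2, floors of 10 and 50 TPM, a pseudocount of 0.1, quantile normalization, other gene filters, limma without trend and each tissue left out. Median scaling, which sets each library's median over the 1344 genes to the mean of its tissue, and the same-direction counts with a tissue left out were added after seeing the data.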

Additional observations from a re-analysis of the deposited data

Results flagged for a closer look

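For named members and for the median of each direction, 54 groups of 4 libraries of a tissue were searched for a library far from the other 3, by Dixon's ratio at its 95% critical value, and 6 were found; chance gives about 1 in 20 for independent normal values, and these genes were picked for folds that involve the libraries found. TRINITY_DN122944_c0_g1 stood at 245 TPM in the soybean oil liver before the meal and at 28.3 to 62.3 TPM in the other livers. TRINITY_DN115919_c0_g1 stood at 348 TPM in the soybean oil brain before the meal against 196 to 219 TPM. In the fish oil brain before the meal TRINITY_DN109539_c1_g2 stood at 182 TPM against 29.9 to 52.2 TPM, and TRINITY_DN112472_c0_g1 at 51.3 TPM against 24.5 to 25.7 TPM. In the soybean oil liver before the meal the median of the 13 higher members was 245 TPM against 50.1 to 62.4 TPM; that median is the value of TRINITY_DN122944_c0_g1 named above, so it is no separate finding, and the next lower of the 13 genes there, TRINITY_DN116451_c2_g2, was at 91.5 TPM. The median of the 86 lower members was 17.8 TPM against 47.1 to 51.5 TPM.

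The after-meal diet folds of the 86 lower members lay on opposite sides of 0 in different tissues. Their median log2 fold in spleen was 1.58 above that in liver, and the median in brain was 0.494 above that in liver. With 1 pair of libraries per tissue this difference was not tested.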

How the results depend on the processing

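How many genes meet the rule depends on its settings. The 13 higher members became 2 at a ratio of 2, 23 and 6 at floors of 10 and 50 TPM, 29 after quantile normalization and 49 after median scaling, of which 8 and 12 were among the 13. With a tissue left out there were 17 to 51, the first without brain. The 86 lower members became 33 at a ratio of 2, 214 and 20 at those floors, 55 after quantile normalization (50 of them among the 86), and 113 to 137 with a tissue left out; median scaling gave 68, of which 65 were among the 86. The cause of the differences between scalings was not tested.

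After-meal medians moved with scaling. Quantile normalization gave -0.061 in brain and 0.118 in liver for the higher members, and 0.385 in brain and -0.019 in liver for the lower. Median scaling gave -0.077, 0.20 and -0.217 in brain, liver and spleen for the higher members, and 0.337, -0.048 and 1.17 for the lower. Lower members that kept their direction in every tissue numbered 5 to 20 with a tissue left out, the last without spleen. Limma calls for diet after the meal numbered 0 in each fit of all 6 libraries, and 2 to 62 with the pair of a tissue left out (27 without brain, 62 without liver, 2 without spleen), on 1 residual degree of freedom; 0 were members. The diet fit already pairs the diets within each tissue; a further block by replicate number could not be fitted, as the labels give none. Unknown depth limits the precision of every value.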
